A study of Homo sapiens with 22 samples.

Results

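Of 137719 Jun regions on chromosomes 1 to 22 and X, 1617 had a Jun peak in both libraries of K562 cells at 0 h and in neither library after 72 h of PMA. These are called lost regions. They were chosen from the peak lists alone: a lost region overlapped by at least 1 bp a deposited peak of each 0 h Jun library and no peak of either 72 h Jun library. A Jun peak was present in both 0 h libraries at 24717 regions, and it was still called in all 6 Jun libraries at 11807, which serve here as the kept regions for comparison. By the 6 h peak lists, 1364 lost regions had no peak at 6 h, 161 had a peak in 1 of the 6 h libraries and 92 had a peak in both.

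K562 is a human leukemia line of erythroid and myeloid character that takes on megakaryocyte features when given PMA (phorbol 12-myristate 13-acetate), an activator of protein kinase C. All groups were K562 cells of the WT genotype kept in RPMI medium with serum, given 25 nM PMA for 0, 6 or 72 h and then crosslinked with formaldehyde. The genomic DNA libraries, labelled CNR by assay, were made with antibodies to Jun, H3K27ac and CTCF at all 3 times and to Rad21 at 0 and 72 h. Each of the 11 groups held 2 libraries, 22 in all. K562 is 1 line, the labels describe no cell purification, and nothing in them says whether the paired libraries came from separate cultures, so p-values measure only the spread between these libraries, which may be technical. Values from the bulk population cannot tell fewer cells with a site in use from less factor at that site in each cell.

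Jun is a subunit of AP-1, a dimer of basic leucine zipper proteins that binds the TGANTCA element and, in dimers with ATF family members, the longer cAMP response element (CRE) TGACGTCA. PMA is a classical inducer of AP-1, and AP-1 binding in K562 and megakaryocytic cells is best known at enhancers far from genes. H3K27ac, an acetylated lysine of histone H3, is a mark of promoters and enhancers in use, CTCF is the zinc finger protein that marks chromatin loop anchors, and Rad21 is a subunit of cohesin, the ring that extrudes loops and stops at CTCF.

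The lost regions at gene starts can be shown as sequence. A promoter window (250 bases before to 50 bases after a gene's start, RefSeq, GRCh38.p14) overlapped 165 of the 1553 lost regions on chromosomes with such windows (10.6%), and 218 windows were involved. The lines below give the bases of 6 of these windows that lie before the gene's start and inside the lost region, each read 5′ to 3′ on the gene's strand. They were chosen after their values were seen. FILIP1L (filamin A interacting protein 1 like) had the strongest Jun level at 0 h among the promoter members, and H3C14 (a histone H3 gene), MLXIP (a glucose-responsive transcription factor), AREG (amphiregulin, a ligand of the EGF receptor), CD2AP (an adaptor of the actin cytoskeleton) and AKIRIN1 (a nuclear protein) had the strongest among those with a CRE before the start. Capitals mark CRE (TGACGTCA), CCAAT and ETS (CCGGAAG) letters on either strand.
FILIP1L promoter, chr3:99876174-99876423, minus strand: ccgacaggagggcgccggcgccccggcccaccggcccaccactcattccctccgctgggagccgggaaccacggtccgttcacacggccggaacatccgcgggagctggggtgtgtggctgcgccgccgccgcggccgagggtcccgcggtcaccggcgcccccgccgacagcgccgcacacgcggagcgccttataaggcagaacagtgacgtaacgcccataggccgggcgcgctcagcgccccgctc
H3C14 promoter, chr1:149841209-149841458, minus strand: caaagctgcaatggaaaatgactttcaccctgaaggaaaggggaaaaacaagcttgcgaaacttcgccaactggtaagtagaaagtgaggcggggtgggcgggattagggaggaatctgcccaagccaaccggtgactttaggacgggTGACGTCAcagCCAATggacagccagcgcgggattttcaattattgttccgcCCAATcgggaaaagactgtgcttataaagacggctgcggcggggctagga
MLXIP promoter, chr12:122078506-122078755, plus strand: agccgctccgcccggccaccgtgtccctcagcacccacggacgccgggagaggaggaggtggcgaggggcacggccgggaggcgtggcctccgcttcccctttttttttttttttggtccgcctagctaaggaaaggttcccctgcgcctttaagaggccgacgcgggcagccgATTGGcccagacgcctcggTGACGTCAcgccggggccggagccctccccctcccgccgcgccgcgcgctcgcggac
AREG promoter, chr4:74444886-74445135, plus strand: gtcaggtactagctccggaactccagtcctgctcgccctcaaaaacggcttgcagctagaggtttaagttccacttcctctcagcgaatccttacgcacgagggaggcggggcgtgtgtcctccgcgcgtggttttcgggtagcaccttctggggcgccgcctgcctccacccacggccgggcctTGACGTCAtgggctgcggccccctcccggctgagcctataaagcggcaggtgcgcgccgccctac
CD2AP promoter, chr6:47477539-47477706, plus strand: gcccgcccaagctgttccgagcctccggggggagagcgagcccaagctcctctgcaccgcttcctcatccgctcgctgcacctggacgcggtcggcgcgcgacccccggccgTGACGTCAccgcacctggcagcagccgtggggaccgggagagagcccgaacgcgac
AKIRIN1 promoter, chr1:38991026-38991275, plus strand: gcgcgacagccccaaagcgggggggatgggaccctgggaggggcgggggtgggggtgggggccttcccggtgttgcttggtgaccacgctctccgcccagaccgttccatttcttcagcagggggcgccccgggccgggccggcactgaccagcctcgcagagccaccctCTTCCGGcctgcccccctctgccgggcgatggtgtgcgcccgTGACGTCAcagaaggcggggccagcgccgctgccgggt

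The CRE began 102 bases before the start in H3C14, 57 in MLXIP, 65 in AREG, 138 in CD2AP and 38 in AKIRIN1, and the FILIP1L stretch held none of the searched letters. H3C14 has near-identical copies, so its reads could have been placed in a copy. Of the 218 windows at lost regions, 24 (11%) held the CRE letters and 2 (0.917%) held the AP-1 letters TGANTCA. Windows with the CRE overlapped 18 of the 165 lost regions. For all motifs here the whole window was searched, so the letters may lie outside the lost region. The windows with AP-1 letters belonged to ITGA5, an integrin subunit of the fibronectin receptor, and LOC124902884, and 1 window held both motifs. The CRE does not contain the AP-1 letters, and both strands were searched. Of all 34961 windows, 1.85% held the CRE and 7.68% the AP-1 letters. Among the 3241 windows at kept regions the shares were 7.53% and 11.5%, and among the 1364 windows at regions absent at 0 h and called in both 72 h libraries they were 0.587% and 25.7%. The windows at lost regions were GC rich, with a median GC content of 69.8% against 63.3% at kept regions and 58.7% in all windows. GATA letters (AGATAA) stood in 4.59% of the windows at lost regions, 5.06% of those at kept regions and 10.3% of all windows. In the same order, ETS letters stood in 15.1%, 20.1% and 10.3%, and CCAAT in 43.6%, 49.5% and 34.6%. For GATA, ETS and CCAAT the kept regions thus differed from all windows in the same direction, and these shares are not particular to lost regions. These are matches of letters in short windows and were not tested for binding.

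The same 6 promoters show how Jun left these sites, in CPM (reads scaled to a common library size with TMM factors), the level used throughout. At FILIP1L (chr3:99875936-99876844) the Jun level was 25.2 and 30.8 CPM at 0 h, 9.53 and 8.94 at 6 h, then 4.99 and 5.01 at 72 h. At H3C14 (chr1:149841096-149841581) it was 25.5 and 21.1, then 14.3 and 11.1, then 5.14 and 4.5. At AREG (chr4:74444846-74445499) it was 15.8 and 16.8, then 7.26 and 10, then 4.85 and 4.92. In all 3 promoters both libraries of each time lay below both of the time before. The H3K27ac region that spans AREG held 16.2 and 18.3 CPM at 0 h, 20.2 and 21.1 at 6 h, then 11.3 and 12.1 at 72 h, and the 6 h difference did not pass the test (edgeR adjusted p = 0.0805), while the 6 h Jun libraries lay below those of 0 h. At FILIP1L the H3K27ac region held 73.9 and 65.9 CPM at 0 h and 53.2 and 58.7 at 72 h (log2 fold change −0.32 ± 0.11 SE, edgeR adjusted p = 0.00923). Its Jun log2 fold change was −2.48, a size set in part by the choice of regions, so it is no measure for the acetylation. At AKIRIN1 acetylation went from 94 and 94.2 CPM to 46.2 and 49.3 (log2 fold change −0.98 ± 0.10 SE, edgeR adjusted p = 3.12e-09), and at CD2AP from 55.1 and 59.7 to 21.2 and 18.9 (−1.52 ± 0.11 SE, edgeR adjusted p = 1.86e-12). Rad21 did not pass the test at any of the 6 promoters.

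Across all 1617 lost regions the median Jun level was 8.46 CPM in both 0 h libraries, 3.18 and 2.92 at 6 h, then 1.66 and 1.57 at 72 h. The kept regions were stronger at the outset, with medians of 19.7 and 20.2 CPM at 0 h and 13.2 and 12.8 at 72 h. These Jun values describe what the choice of peaks set and are not tested. The 0 h libraries both lay above both 72 h libraries at 1616 of 1617 lost regions, and above both 6 h libraries at 1380. Between 6 and 72 h, both 6 h libraries lay above both 72 h libraries at 1051. No lost region was empty at 72 h: none had 0 counts in both 72 h libraries, and the median region held 35 and 37 reads there. As a description of what the choice fixed, and with nothing read from it, the edgeR fit has 1611 of 1617 lower at 72 h beside 25.7% of all tested Jun regions, with a median log2 fold change of −2.42 against 0.17 over all tested regions.

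**Figure D1:**
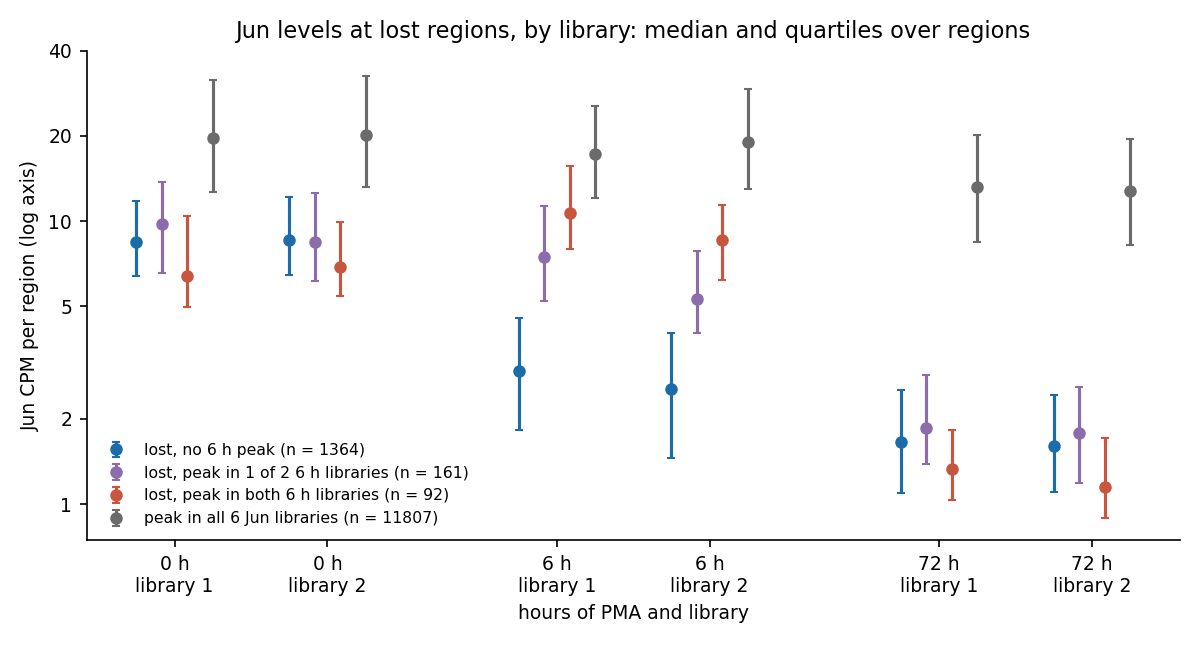
Jun level per region in CPM on a log axis, by library (horizontal axis, hours of PMA), for lost regions without a 6 h peak, with a peak in 1 or in both 6 h libraries, and for regions with a peak in all 6 Jun libraries. Points are medians over regions and bars the quartiles; the 92 lost regions with 6 h peaks have medians of 10.7 and 8.58 CPM at 6 h, then 1.33 and 1.15 at 72 h.

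The lost regions were narrow and modest peaks. Their median width was 459 bp, with a range of 200 to 1345, against 815 bp for the kept regions. The authors' peak scores give a median −log10 q of 8.1 and 8.96 in the 0 h libraries, against 20.5 and 22.4 at kept regions, and a median fold enrichment of 5.14 and 5.33 against 7.59 and 7.8. At the edge of the rule, the lowest −log10 q of a 0 h peak at a lost region was 2.31. Just outside it stood 1565 regions with both 0 h peaks and a peak in 1 of the 72 h libraries, whose median level was 9.46 CPM at 0 h, 4.73 at 6 h and 2.79 at 72 h. A further 4655 regions had a peak in only 1 of the 0 h libraries and none at 72 h, with medians of 4.12, 1.8 and 1.01 CPM. The lost regions themselves had medians of 8.52, 3.1 and 1.62 CPM over the mean of each time.

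Lost regions lay mostly away from gene starts. Their median distance to the nearest RefSeq gene start was 20761 bp, against 16119 bp for kept regions, and 199 of 1553 (12.8%) were centred within 1000 bp of one, against 20.3%. Inside a gene's span lay 1065 of 1617 (65.9%). The nearest region gained by 72 h was at a median distance of 16262 bp, and 25.4% of lost regions had one within 5000 bp, against 11889 bp and 21.6% for kept regions.

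The 6 lost regions with the highest Jun level at 0 h ranged widely in what remained. The strongest (chr16:90168355-90169603, in the span of FAM157C, a gene with close copies near chromosome ends) held 55.4 and 63.5 CPM at 0 h (mean 59.5 ± 5.71 SD, n = 2), 12.9 and 16.4 at 6 h, then 9.84 and 7.13 at 72 h (8.49 ± 1.92 SD). A region inside ZFPM2 (chr8:105520149-105521053), which encodes a GATA cofactor of the FOG family, went from 54.3 and 59.3 CPM to 8.4 and 6.57 and then 3.95 and 3.4. A region on chromosome 10 122393 bp from the nearest listed gene start (chr10:80771659-80772721) went from 42.4 and 57 to 9.08 and 6.93 and then 4.76 and 3.52. These 3 had lost most of their Jun level by 6 h. The region in MAPRE3 (chr2:27006729-27007922), the gene of a microtubule end-binding protein, held 43.5 and 46.7 CPM at 0 h, 18.2 and 19.7 at 6 h, then 19.1 and 17.2 at 72 h. Its 72 h level is above the median of the kept regions, though no 72 h peak was called there. The other 2 lie on the short arm of chromosome 21, where repeated sequence makes read placement uncertain: chr21:8994852-8995553 held 45.4, 42.4, 34, 29.7, 19.1 and 15.7 CPM in library order, and chr21:8418021-8418426 held 45.8, 41.1, 55.2, 34.1, 20.9 and 15.2.

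The other marks differed among these strong regions. On chromosome 10, H3K27ac went from 83.5 and 86.3 CPM at 0 h to 12.7 and 11.8 at 6 h, then 5.21 and 3.75 at 72 h (log2 fold change −4.24 ± 0.14 SE, edgeR adjusted p = 3.02e-19). In ZFPM2 it was 53.7 and 48.1, then 39 and 37.4, then 16.2 and 15.8, so most of its decrease came after 6 h, when Jun was already low. Most of that H3K27ac region (chr8:105517865-105520546) lies outside the Jun region (chr8:105520149-105521053). In MAPRE3 it was 76.4 and 81.7 CPM at 0 h, 37.2 and 45.2 at 6 h, then 43.4 and 49.1 at 72 h, no lower at 72 h than at 6 h. Jun there differed little between 6 and 72 h (log2 fold change −0.06 ± 0.19 SE). At chr21:8994852-8995553 Rad21 was higher at 72 h, with 36.9 and 32.2 CPM against 11.8 and 12 (log2 fold change 1.54 ± 0.25 SE), and at chr21:8418021-8418426 none of the other antibodies passed the test at 72 h.

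Acetylation fell at the great majority of lost regions that carried an H3K27ac region. Such a region overlapped 987 of the 1617 (61%), giving 1094 H3K27ac regions of which 1093 could be tested, and the other lost regions enter none of the counts that follow. In single libraries, 46.2% and 46.5% of lost regions overlapped an H3K27ac peak at 0 h and 22.3% in each library at 72 h. More of them can thus have entered through 0 h peaks, which favours a fall, and the part of this in the counts was not tested. The median H3K27ac level was 12.4 CPM in each 0 h library, 5.46 and 5.32 at 6 h, then 2.66 and 2.48 at 72 h. At kept regions it was 12.9 and 13.1, then 16.9 and 16.8, then 16.6 and 16.8, so where an H3K27ac region was present the 0 h medians were close and the 72 h medians were not. Such a region overlapped 61% of lost and 92.4% of kept regions. From 0 to 72 h, 953 of 1093 were called lower and 34 higher (edgeR quasi-likelihood test, Benjamini-Hochberg adjusted over all regions), where 38.1% of all tested H3K27ac regions were called lower and 43.4% higher. The median log2 fold change was −2.00, against 0.18 over all tested regions and 0.00 over the 11484 tested at kept regions, of which 4554 were called lower and 4656 higher. The 1565 regions with both 0 h peaks and a peak in 1 of the 72 h Jun libraries also lost acetylation. There 970 of 1207 tested H3K27ac regions were called lower and 67 higher, with a median of −1.08.

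At lost regions the acetylation had dropped in part by 6 h. From 0 to 6 h, 793 were called lower and 39 higher, where the background was 26.3% lower and 32.3% higher, and the median log2 fold change was −1.01. From 6 to 72 h, 701 were called lower and 64 higher, with 30.8% and 33.1% of all tested regions, and a median of −0.86. Scaling on the regions peaked in all libraries moved the median of all tested regions from 0.18 to 0.82 and that of the lost regions to −1.36 at 72 h, with 768 called lower and 118 higher. Under that scaling the 6 h comparison gave 624 lower and 106 higher (634 and 101 when scaled on total counts), and 72 h against 6 h gave 551 lower and 140 higher. The lost regions stood below the rest under each of these scalings.

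In the peak lists, 675 lost regions (41.7%) overlapped an H3K27ac peak of both libraries at 0 h, 263 (16.3%) at 6 h and 298 (18.4%) at 72 h. The 6 h H3K27ac libraries were the shallowest, with 12634261 and 18775241 reads in regions against 26216577 and 27266241 at 72 h. Since the counts fell further from 6 to 72 h, the higher 72 h share is not read as a recovery. Kept regions went the other way, from 57.2% through 65.7% to 79.2%. Of the 675 acetylated lost regions, 266 (39.4%) overlapped a peak of both 72 h libraries and 325 (48.1%) overlapped none, while 95.2% of acetylated kept regions kept theirs. Of the 793 lost regions with no H3K27ac peak at 0 h, 19 (2.4%) had gained one in both 72 h libraries, against 53.8% at kept regions. At 0 h, 682 lost regions (42.2%) overlapped no H3K27ac, CTCF or Rad21 peak found in both libraries of that antibody.

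**Figure D2:**
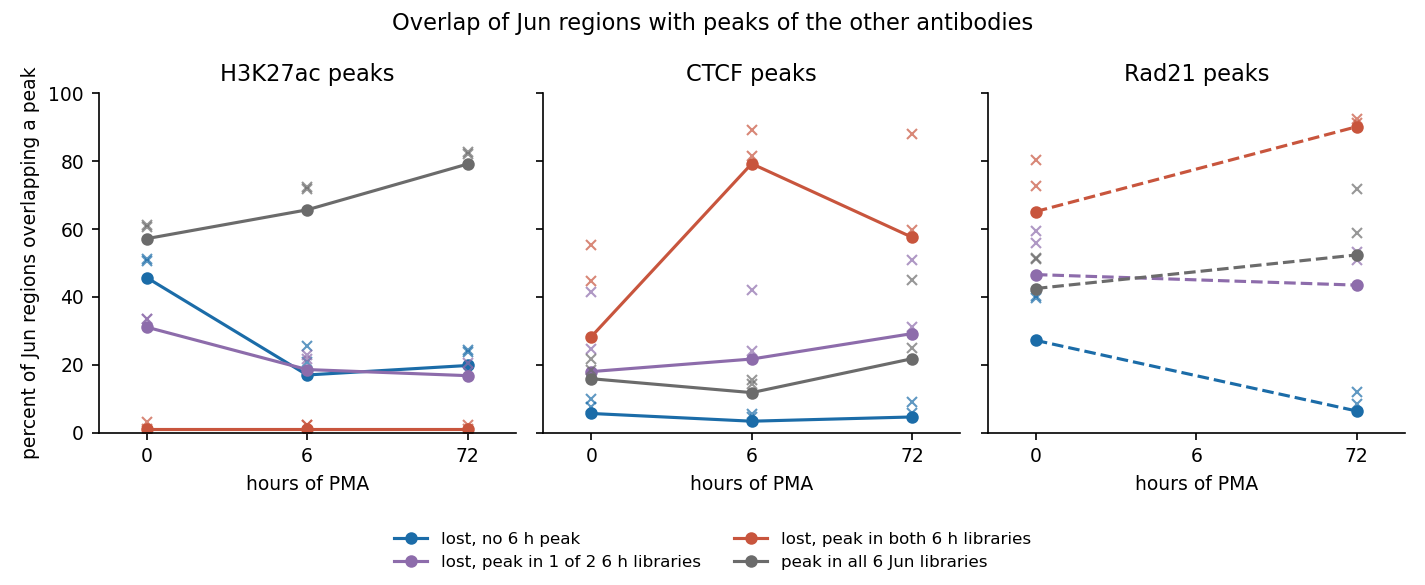
Percent of Jun regions that overlap a peak of H3K27ac, CTCF or Rad21 (panels) at each time of PMA (hours). Dots joined by lines count peaks found in both libraries and crosses each library alone; there is no Rad21 library at 6 h (dashed lines). H3K27ac overlap falls from 45.7% to 19.8% at lost regions without a 6 h peak, and CTCF overlap goes from 28.3% through 79.3% at 6 h to 57.6% at 72 h at those with peaks in both 6 h libraries.

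The lost regions with the largest decreases of acetylation, among those at or above the median level, ended at 1.19 CPM or less at 72 h. At a lost region 1829 bp from the start of OAT (ornithine aminotransferase, a mitochondrial enzyme; chr10:124420460-124421043), H3K27ac was 34.6 and 37.1 CPM at 0 h, 4.62 and 3.79 at 6 h, then 0.29 and 0.401 at 72 h (log2 fold change −6.68 ± 0.21 SE, edgeR adjusted p = 2.97e-19). Jun there was 10.6 and 12.5 CPM at 0 h, 0 and 1.09 at 6 h, then 0.571 and 0.382 at 72 h. In the span of OOSP4A, a gene named for oocyte secretion, 2 H3K27ac regions overlapped 1 lost region (chr11:59967956-59968558), and the larger went from 78.3 and 77.4 CPM to 1.19 and 0.583 (log2 fold change −6.44 ± 0.18 SE). In LOC124902182 on chromosome 9 (chr9:73369853-73370520) acetylation went from 15.6 and 13.2 CPM to 0.181 and 0.0364 at 72 h. Lost regions on chromosome 7 (chr7:19677132-19677678) and on chromosome 13 near LINC00561 (chr13:76029181-76029718) had log2 fold changes of −6.04 and −5.87. In each of these the 6 h libraries lay between the 0 h and the 72 h libraries, without overlap.

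At 4 named lost regions acetylation rose. Within 50 kb of JUN itself, in the span of LOC112268263 (chr1:58754876-58755272), H3K27ac was 5.51 and 4.8 CPM at 0 h, 15.8 and 20.7 at 6 h, then 32.2 and 35.3 at 72 h (log2 fold change 2.71 ± 0.15 SE, edgeR adjusted p = 1.03e-14). Jun at that site was 7.58 and 6.45 CPM, then 1.82 and 3.83, then 2.9 and 3.57. In PHC2, a Polycomb group gene, acetylation went from 1.08 and 1.69 CPM to 6.33 and 5.75. That H3K27ac region (chr1:33430847-33431048) overlaps only the edge of the lost region (chr1:33431002-33431418) and held 19 and 32 reads at 0 h. In LINC01353 acetylation went from 2.84 and 2.95 CPM to 13.7 and 13.6. In DRC9, a gene of the ciliary dynein regulatory complex (chr3:197906208-197906674), acetylation went from 2.16 and 2.48 CPM to 12.7 and 12.8. Jun at this last region was 8.46, 7.31, 10.2, 10.8, 10.4 and 9.85 CPM in library order, and it is the 1 lost region whose 0 h libraries did not lie above the 72 h libraries.

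The loss of acetylation was smaller at promoters. At the 165 lost regions with a promoter window, 153 H3K27ac regions were tested, 112 were called lower at 72 h and 9 higher, and the median log2 fold change was −0.67. At the 1388 lost regions without one, 803 of 898 were called lower and 23 higher, with a median of −2.23. The medians by library were 28.2 and 29.9 CPM at 0 h against 16.5 and 16.9 at 72 h at promoters, and 10.8 and 10.7 against 1.99 and 1.97 elsewhere. An H3K27ac peak of both libraries overlapped 68.5% of the promoter members at 0 h and 61.8% at 72 h, and 38.4% and 13.4% of the others. H3K27ac regions were wider at promoters, with a median of 1515 bp against 818 bp, and the part of width in the smaller change was not tested. Jun itself had medians of 8.31 and 8.46 CPM at 0 h and 2.43 and 2.29 at 72 h at promoters, beside 8.46 in both 0 h libraries and 1.57 and 1.53 elsewhere. The difference between promoter members and the others was not tested.

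**Figure D3:**
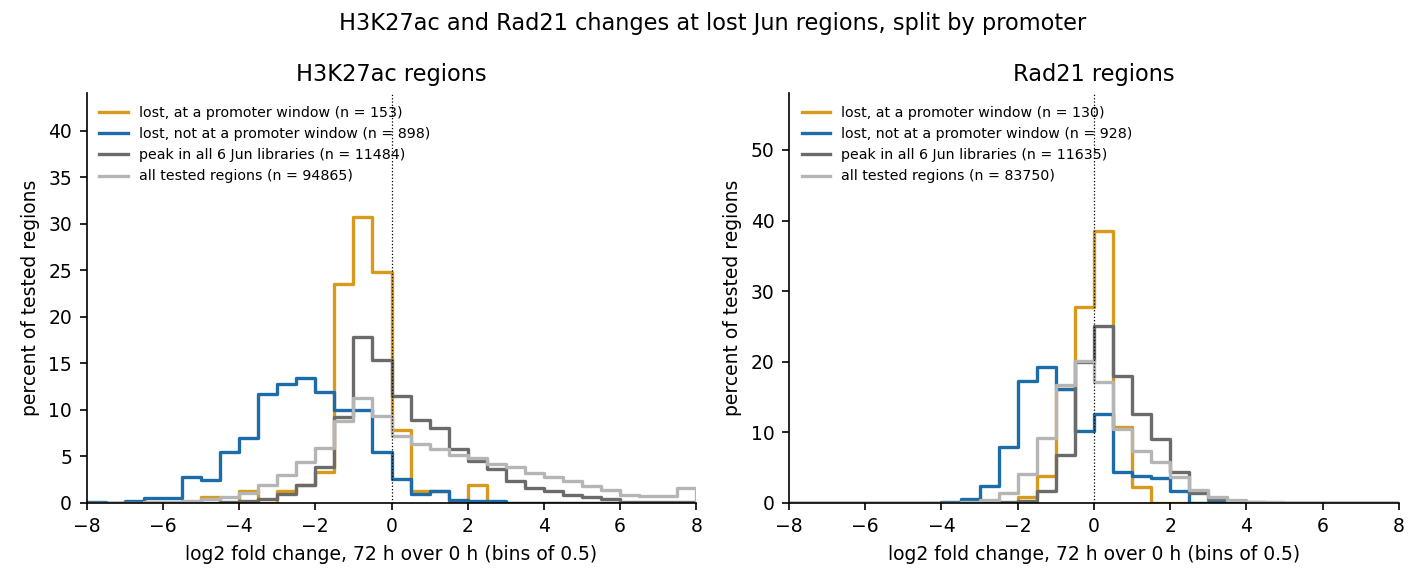
Distribution of log2 fold changes from 0 to 72 h in bins of 0.5 (horizontal axis) as percent of tested regions, for H3K27ac (left) and Rad21 (right) regions at lost Jun regions with and without a promoter window, at regions with a peak in all 6 Jun libraries, and over all tested regions. Values past the ends are in the outer bins. The lost regions away from promoters have medians of −2.23 for H3K27ac and −0.94 for Rad21, those at promoters −0.67 and 0.02.

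Rad21 fell at many lost regions, most of them away from promoters. A Rad21 region overlapped 1086 of 1617, and 1099 of 1121 such regions were tested. The median Rad21 level was 7.08 and 6.75 CPM at 0 h and 4.02 and 3.96 at 72 h, while at kept regions it was 6.92 and 6.33 and then 9.67 and 9.24. At 72 h, 389 were called lower and 100 higher (edgeR), where 7.91% of all tested Rad21 regions were called lower and 15.4% higher. The median log2 fold change was −0.78, against −0.05 over all tested regions, but among those with a mean count of at least 50 it was 0.02, with 93 called lower. Away from promoters 371 of 928 were called lower, and at promoters 5 of 130. The count is sensitive to the libraries: it was 187 without 0 h library 1, 181 without 72 h library 1, 206 without 72 h library 2 and 160 with DESeq2 in place of edgeR. Among the 1565 regions with both 0 h peaks and a peak in 1 of the 72 h Jun libraries, Rad21 went the same way to a lesser degree. There 243 of 1227 tested Rad21 regions were called lower and 92 higher, with a median of −0.29.

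The Rad21 calls differed between lost regions without and with a Jun peak at 6 h. Where the Jun peak was already gone at 6 h, 373 of 876 tested Rad21 regions were called lower and 13 higher, with a median log2 fold change of −1.04. Where both 6 h libraries still had a Jun peak, 0 of 89 were called lower and 69 higher, with a median of 1.36. The 69 became 42 without 72 h library 2, and among regions whose borders are not those of a CTCF or Rad21 region (described below) 6 of 21 were called higher, with a median of 0.24. The 161 lost regions with a 6 h peak in 1 library lay between, with 16 lower and 18 higher of 135. The difference between these sets was not tested. In the peak lists, 371 lost regions without a 6 h Jun peak overlapped a Rad21 peak of both 0 h libraries, and 271 of these (73%) had none at 72 h. Of the 60 with 6 h Jun peaks and a 0 h Rad21 peak, 59 (98.3%) still had it in both 72 h libraries.

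The largest Rad21 decreases among called regions at or above the median level stood at acetylated sites. Their counts were low, with 75 and 63 Rad21 reads at 0 h and 8 and 10 at 72 h in C20orf203. Near LINC00499 there were 48 and 35, then 7 and 4. In the span of C20orf203 (chr20:32642233-32642843), Rad21 went from 11.8 and 13.3 CPM to 1.19 and 1.89 (log2 fold change −3.04 ± 0.39 SE, edgeR adjusted p = 1.33e-05) and H3K27ac from 69.8 and 71.7 to 3.84 and 2.84. On chromosome 4 near LINC00499 (chr4:138438658-138439547), Rad21 went from 7.55 and 7.39 CPM to 1.04 and 0.754 and H3K27ac from 138 and 130 to 4.02 and 3.2. CTCF had no region at either site. In ZFPM2 Rad21 went from 13.1 and 10.8 CPM to 1.79 and 3.2 (log2 fold change −2.28 ± 0.37 SE). In all 3 both 72 h libraries lay below both 0 h libraries.

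The 92 lost regions with Jun peaks in both 6 h libraries differed from the rest in shape as well. Of these, 68 (73.9%) had a start and an end within 5 bp of those of a CTCF or Rad21 region, and 33 were exactly 381 bp wide. Such shared borders were found at 21 of 161 (13%) lost regions with a peak in 1 of the 6 h libraries, at 12 of 1364 (0.88%) without one, at 3.23% of kept regions and at 0.779% of all Jun regions. At the 1565 regions with both 0 h peaks and a peak in 1 of the 72 h Jun libraries the share was 5.05%. Of all lost regions it was 6.25%. In all, 101 lost regions on 21 chromosomes shared their borders, 87 of them with a CTCF region and 93 with a Rad21 region. Almost none was acetylated: 4 of the 101 overlapped an H3K27ac region at all. Shared borders of this kind were noticed in the data and defined afterwards, so the values below are given with and without these 101 regions, and their part in the results was not tested.

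Of the 101 regions with shared borders, 68 had Jun peaks in both 6 h libraries, so their Jun level at 6 h in part restates that split. The median Jun level at the 101 was 5.98 and 6.45 CPM at 0 h, 9.99 and 8.03 at 6 h, then 1.28 and 1.1 at 72 h. In the edgeR fit 1164 of 1617 lost regions were lower at 6 h and 14 higher, beside 12.2% and 13.1% of all tested Jun regions. The lost regions were chosen for their 0 h peaks and split by their 6 h peaks, so these counts are a description and nothing is read from them. The 14 were among the 68 regions with shared borders and peaks in both 6 h libraries, and of the 101 with shared borders 2 were lower. Without the 101 regions, 1162 of 1516 were lower and 0 higher, and the median log2 fold change was −1.61 against −1.53 with them. The 6 h libraries were the shallowest for Jun, and the median lost region held 14 and 16 reads there against 58 and 59 at 0 h.

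CTCF was higher at 6 h at these regions and fell again toward 72 h. Among lost regions with peaks in both 6 h libraries, the median CTCF level was 6.12 and 7.94 CPM at 0 h, 29 and 27.7 at 6 h, then 6.91 and 11.2 at 72 h. Both 6 h medians lay above all others. A CTCF peak of both libraries overlapped 28.3% of the 92 at 0 h, 79.3% at 6 h and 57.6% at 72 h. In single libraries the share was 44.6% and 55.4% before PMA, against 59.8% and 88% after 72 h. The library with 88% was the deepest for CTCF, and the part of depth in these shares was not tested. By counts, the median log2 fold change from 0 to 72 h was 0.39. Of the 86 tested CTCF regions, 3 (3.49%) were called higher at 72 h and 1 lower, where 4.07% of all tested regions were called higher. The larger peak share at 72 h is therefore not read as a lasting gain. From 0 to 6 h, 65 of 86 tested CTCF regions were called higher, with a median log2 fold change of 2.14, and of all lost regions 88 of 443, where 2.33% of all tested CTCF regions were called higher. From 6 to 72 h, 56 of the 86 were called lower and 73 of all 443, where the background was 1.73%. These calls rest on 1 library: without 0 h CTCF library 1, 1 of the 86 was called higher at 6 h, and 1 of 61674 regions in the whole table, although the median log2 fold change of the 86 was still 1.75. Leaving out each of the other CTCF libraries left 60 to 69 calls. At the 1565 regions with both 0 h peaks and a peak in 1 of the 72 h Jun libraries, 66 of 624 tested CTCF regions were called higher at 6 h with all libraries.

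Most of the CTCF and Rad21 increases were at the regions with shared borders. With shared borders, 78 of 100 tested CTCF regions were called higher at 6 h (median log2 fold change 2.15) and 79 of 100 Rad21 regions at 72 h (median 1.34). Without them, 10 of 343 CTCF regions were called higher at 6 h and 21 of 999 Rad21 regions at 72 h, and 388 Rad21 regions were called lower with a median of −0.93. Of the 24 lost regions with peaks in both 6 h libraries and no shared borders, 5 of 18 CTCF regions and 6 of 21 Rad21 regions were called higher, with medians of 0.55 and 0.24.

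**Figure D4:**
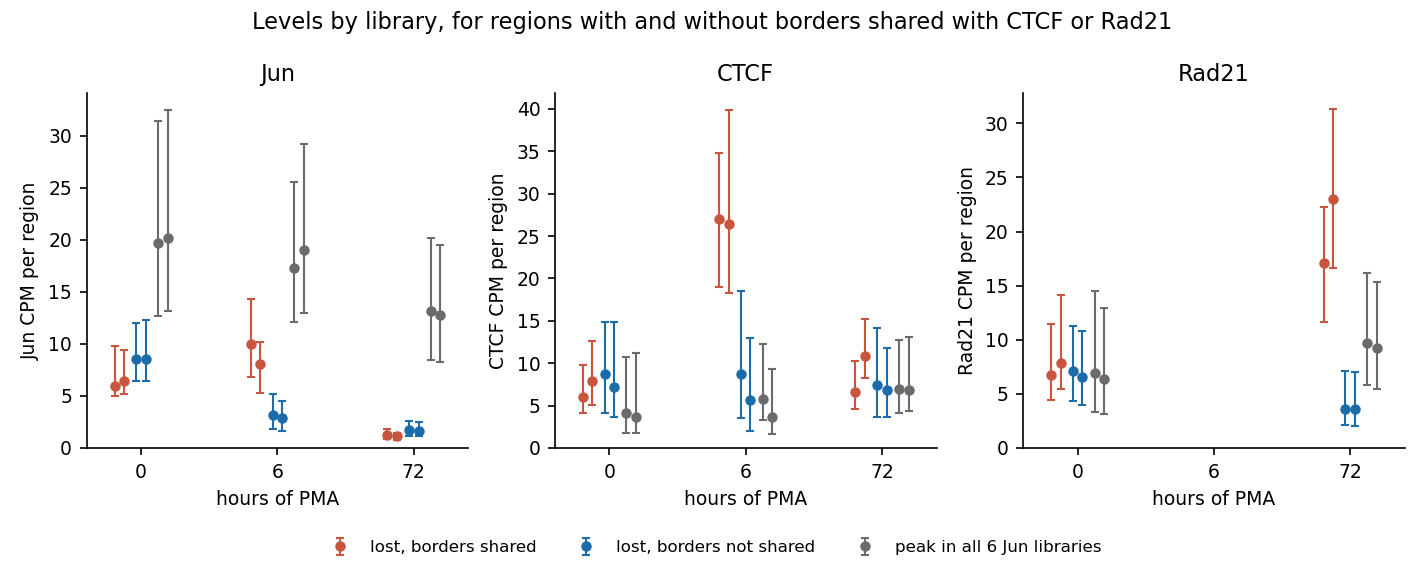
Level per region in CPM for Jun, CTCF and Rad21 (panels) by hours of PMA, each point the median over regions in 1 library and each bar the quartiles. Lost regions whose borders are shared with a CTCF or Rad21 region (101) have CTCF medians of 27 and 26.4 CPM at 6 h and Rad21 medians of 17.1 and 23 CPM at 72 h; the other 1516 lost regions have 8.74 and 5.7, and 3.57 and 3.58. There is no Rad21 library at 6 h.

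Single regions of this group show the pattern library by library. In C4orf51 (chr4:145711545-145711916), where the Jun, CTCF and Rad21 regions have identical borders, CTCF was 1.78 and 4.33 CPM at 0 h, 22.3 and 30.1 at 6 h, then 6.91 and 11.8 at 72 h. Rad21 was 2.52 and 2.11 CPM at 0 h and 17.4 and 29.2 at 72 h (log2 fold change 3.30 ± 0.35 SE, edgeR adjusted p = 3.16e-06), and Jun 6.71, 3.3, 5.22, 4.93, 1.24 and 0.891 in library order. The CTCF libraries of 6 h stood apart from those of both other times, and Jun did not separate 0 from 6 h. In NPAS2, a circadian transcription factor gene (chr2:100907360-100907739), Rad21 went from 4.25 and 6.75 CPM to 18.5 and 40.2 (log2 fold change 2.43 ± 0.35 SE). Near GPX1P2 (chr21:27059035-27059414) CTCF was 1.78 and 2.17 CPM at 0 h and 14.2 and 15.1 at 6 h. A region 4311 bp from the start of LOC105373397 (chr2:4091898-4092257), with the next highest Jun level at 6 h of those kept there, held 26.4 and 21.6 CPM of Jun at 0 h, 30.6 and 30.5 at 6 h, then 2.85 and 2.12 at 72 h, with CTCF at 30.1 and 39, 93.9 and 134, and 16.6 and 24.6. The highest (chr2:90380655-90381222) held Jun at 44.2, 31.1, 51.5, 23.9, 7.66 and 5.6 CPM and did not pass the test for CTCF or Rad21.

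CTCF changed little between 0 and 72 h at lost regions as a whole. Of 443 tested CTCF regions, 23 were called lower and 6 higher, where 2.72% of all tested regions were called lower and 4.07% higher, and the median log2 fold change was 0.01. The split turned with the scaling, to 12 lower and 17 higher when scaled on the regions peaked in all libraries and to 18 and 30 with total counts. Leaving out 1 library moved the 23 to between 1 and 47. An example of the decreases is the region in the spans of OGG1, which repairs oxidised guanine, and TADA3, an adaptor of histone acetyltransferase complexes (chr3:9786145-9786903). CTCF there was 18.9 and 23.1 CPM at 0 h and 4.61 and 3.65 at 72 h (log2 fold change −2.35 ± 0.34 SE, edgeR adjusted p = 0.00275), with H3K27ac going from 39 and 45.2 to 3.73 and 3.97. Another region on chromosome 3 (chr3:65193818-65194153) had CTCF at 35.7 and 15.9 CPM at 0 h and 3.23 and 5.06 at 72 h, but its H3K27ac libraries disagreed, with 18 and 1.16 CPM at 0 h. This region is one of those with Jun peaks in both 6 h libraries and borders shared with a Rad21 region. Its Rad21 libraries disagreed too, with 1.49 and 11.5 CPM at 72 h.

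In every gene list but that of AP-1 and early response genes, all H3K27ac regions tested at nearby lost regions were called lower at 72 h. No share over all genes was computed, so the counts of genes below are not read as few or many. The lists hold 82 genes, and a lost region counts where it lies within 50 kb of a gene's span. Among red cell membrane and receptor genes, 4 of 12 had a lost region, and all 6 of the H3K27ac regions there were called lower at 72 h. For erythroid transcription factors it was 3 of 12 genes (KLF1, ZFPM1 and MYB) with 4 of 4 lower, and for globin, heme and iron genes 5 of 13 with 3 of 3 lower, where neighbouring genes share lost regions and the 5 genes have 4 between them. The lost regions near UROD and in ERMAP overlapped no H3K27ac region and enter none of these counts. Of 16 megakaryocyte genes only ITGB3, the platelet integrin subunit, had one, with 1 of 1 lower. Of 13 AP-1 and early response genes only JUN had one, and its acetylation was higher. CCND3 (cyclin D3) alone of 8 growth genes had lost regions, with 2 of 2 lower, and of 8 cytokine signalling genes STAT5A, STAT5B and LYN had them, with 1 of 1 lower. Over all lost regions 953 of 1093 (87.2%) were called lower, and of all tested H3K27ac regions 38.1%. With so few regions per list, the red cell and erythroid lists do not stand apart from the lost regions as a whole. The lists were chosen with earlier results of these data known.

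GYPC and GYPB encode glycophorins, sialic acid rich proteins of the red cell membrane. Beside GYPC (chr2:126644849-126645664, 10901 bp from its start), Jun was 22.3 and 24.8 CPM at 0 h, 4.09 and 4.2 at 6 h, then 3.71 and 3.99 at 72 h. H3K27ac was 77.8 and 76.9 CPM, then 14.5 and 18.3, then 7.13 and 7.79 (log2 fold change −3.37 ± 0.12 SE at 72 h, edgeR adjusted p = 3.77e-18), and Rad21 went from 34 and 24.3 to 4.47 and 7.54 (−2.30 ± 0.30 SE). Jun had reached its low level by 6 h, while acetylation went on falling. Near GYPB (chr4:143975446-143976124) Jun went from 12 and 12.8 CPM to 1.52 and 1.1 and the larger H3K27ac region from 23.6 and 24.3 to 1.48 and 1.71. GYPB has close copies, so reads there may be shared. ERMAP, an erythroid membrane protein gene, held a lost region with Jun at 12, 14.2, 7.49, 6.93, 4.37 and 3.69 CPM and no H3K27ac region.

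**Figure D5:**
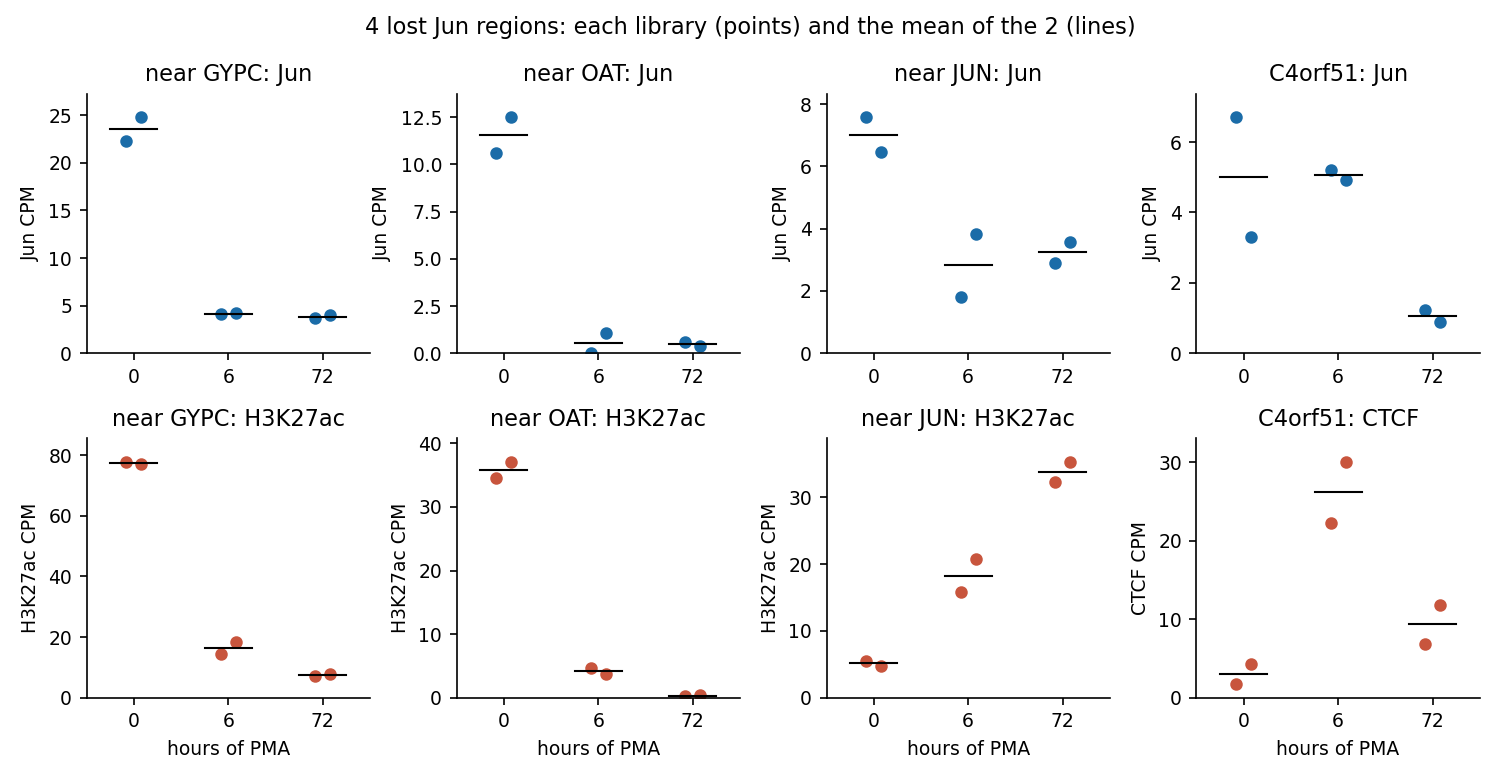
CPM in each library (points) and the mean of both (lines) by hours of PMA at 4 lost regions, with Jun in the upper panels and H3K27ac or CTCF in the lower. Near GYPC and OAT acetylation falls with Jun, near JUN it rises from 5.51 and 4.8 to 32.2 and 35.3, and in C4orf51 CTCF is highest at 6 h, at 22.3 and 30.1.

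Among regulators, the region in ZFPM1 (FOG1, the cofactor of GATA1; chr16:88464798-88465205) had Jun at 11.8 and 11.5 CPM at 0 h and 1.81 and 1.06 at 72 h and H3K27ac at 9.71 and 7.64 against 2.93 and 3.42 (log2 fold change −1.45 ± 0.20 SE, edgeR adjusted p = 5.36e-07). Near MYB, a transcription factor of immature blood cells, Jun went from 7.44 and 6.74 CPM to 2.57 and 3.27 and H3K27ac from 2.61 and 3.74 to 1.95 and 1.97. Near KLF1, the erythroid zinc finger factor, the lost region inside FARSA (chr19:12922409-12922788) belongs to those with borders shared with CTCF and Rad21. Its Jun level was 4.81 and 7.6 CPM at 0 h, 17.9 and 9.49 at 6 h, then 1.43 and 1.27 at 72 h, and its CTCF 5.61 and 9.38, 29.8 and 19.9, and 7.83 and 9.83. Near SLC25A37, the mitochondrial iron importer, H3K27ac went from 47.8 and 44.4 CPM to 9.27 and 10.9. Near STAT5A, Jun went from 10.9 and 12.2 CPM to 2.23 and 1.57, and near CCND3 from 12 and 16.6 to 2.28 and 2.08. The region near ITGB3, at the start of EFCAB13-DT, held H3K27ac at 35.9 and 33.1 CPM at 0 h and 20.3 and 21.6 at 72 h, a log2 fold change of −0.72 against the median of −2.00 over lost regions.

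The Jun libraries held between 4766421 (6 h) and 18883962 (72 h) reads in regions, the H3K27ac libraries 12634261 to 27266241, the CTCF libraries 2553677 to 6068421 and the Rad21 libraries 4398797 to 7285286. The mitochondrial share of these reads moved with time, from 24.0% and 27.7% in the 0 h Jun libraries to 9.07% and 8.58% at 72 h, and its part in the Jun results was not tested. Of 8 genes that mark K562 as erythroid, 4 had an H3K27ac peak of both 0 h libraries in their span and the other 4 did not, and the summed H3K27ac level over the list was 920 and 937 CPM at 0 h, 382 and 450 at 6 h, then 356 and 375 at 72 h. Of 8 marker genes of other blood cells, 3 had such a peak, with summed levels of 103 and 117, 46.4 and 44.4, and 48.4 and 46.6 CPM. The part of this shift in the counts at lost regions was not tested.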

How the data were processed

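The members and gene lists were chosen with earlier results of these data known. Libraries were grouped by antibody and hours of PMA from the labels, 2 per group. The deposited region tables hold raw read counts per region and library, with the authors' own log2 fold changes and adjusted p-values. The deposited peak lists give for every peak of a library the authors' fold over background, a ratio, with the −log10 of p and q, which were used only to describe and filter peaks. Per the submitters' processing notes, Trim Galore 0.4.3, BWA 0.7.17, SAMtools 1.9, deepTools 3.0.1, MACS2 and bedtools 2.26 were used with hg19 and hg38. Region positions run past the end of hg19 chromosomes, so coordinates are read as hg38.

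A region belonged to a lost region where they overlapped by at least 1 bp. The counts were tested with edgeR 4.0.16 (R 4.3.3; TMM scaling, filterByExpr, quasi-likelihood test), 1 fit per antibody over all its times, with Benjamini-Hochberg adjustment over all tested regions and a threshold of 0.05. With 2 libraries against 2, an exact permutation test cannot go below p = 0.333, so no single value was tested that way. CPM is the count scaled to a common library size with TMM factors (edgeR's cpm). Each fit was tested on simulated data. Alternatives were DESeq2 1.42.0, other scalings and filters, a replicate block, stricter peaks and leaving out each library. Regions with shared borders were left out as an alternative chosen after seeing the data. The median lost region held 58 and 59 Jun reads at 0 h but 14 and 16 at 6 h, so the absence of a 6 h peak is judged at lower depth.

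Named regions were the 6 with the highest Jun level at 0 h, those with the largest called changes of H3K27ac (6 lower regions, 4 higher) and of CTCF and Rad21 (2 of each direction) whose libraries did not overlap and whose mean level was at or above the median, the 2 highest in Jun with and without 6 h peaks, and 1 lost region per listed gene within 50 kb. Some listed items are not reported here. Promoter sequences come from RefSeq, GRCh38.p14, and sequences of other lost regions were not used here.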

Additional observations from a re-analysis of the deposited data

How the results depend on the processing

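The 1617 lost regions came out at 2345 to 4425 when 1 Jun library of 0 or 72 h was left out, most (4425) without 0 h library 1 and 3464 without 0 h library 2, and at 369 with a −log10 q of at least 10. On leaving out any 1 Jun library, the share with peaks in every 6 h library used ran from 3.49% to 10.8%. The 10.8% is the share in 6 h library 1 alone, with 6 h library 2 left out. The share with peaks in both 6 h libraries was 8.67% at the stricter q and 1.58% without shared-border regions. The share with an H3K27ac peak in both 0 h libraries ran from 31.4% to 45.3%, and was 29.8% at the stricter q, 30.1% when a peak had to cover 0.5 of the shorter interval and 44.5% without shared-border regions. Leaving out 1 library gave 1585 to 1614 Jun regions lower at 72 h and 951 to 1145 at 6 h, which the choice of regions fixes and which say nothing of stability. It gave 919 to 970 H3K27ac regions lower at 72 h, 722 to 786 at 6 h and 627 to 695 from 6 to 72 h, 1 to 47 CTCF regions and 181 to 356 Rad21 regions lower at 72 h. At the regions kept at 6 h it gave 1 to 69 CTCF regions higher at 6 h and 42 to 68 Rad21 regions higher at 72 h. With a mean count of at least 50, fewer regions were tested: 485 Jun regions were lower at 72 h and 369 at 6 h, 1 CTCF and 93 Rad21 regions were lower at 72 h, and 34 CTCF regions were higher at 6 h at the regions kept there. CTCF at 72 h gave 12 lower with DESeq2, 12 with factors from common peaks and 49 with only the compared times, and Rad21 gave 160 with DESeq2. Without shared-border regions, 5 CTCF and 6 Rad21 regions were higher at those kept at 6 h. The median CTCF change at 72 h (0.01) ran from −0.07 to 0.06 on leaving out 1 library, below 0 in 5 of these fits (−0.07, −0.05, −0.04, −0.02 and −0.01), and turned to −0.11 without shared borders, and the Rad21 median to 0.02 at the count filter. H3K27ac at chr3:65193811-65194166 (−2.66) ran from −4.55 to 0.36 on leaving out 1 library, reversed without 0 h library 1, Rad21 at chr3:65193819-65194148 (1.93) from −0.06 without 72 h library 2 to 2.85, and H3K27ac at 6 h near ITGB3 turned to 0.02 with common-peak factors. Except where the construction shows it, the cause was not tested. Of 208 results at named regions, 152 stayed past the threshold under every alternative run.

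Same-numbered libraries are tied in the labels by that number alone. Correlations of their deviations were weak, from −0.02204 to 0.124, but for CTCF all were above 0, at 0.124, 0.07963 and 0.1032. Whether these libraries were paired was not tested further. With the replicate block, the counts lower were 1611 and 1153 for Jun at 72 and 6 h, 955, 793 and 699 for H3K27ac, 34 for CTCF (23 without it) and 405 for Rad21. At the regions kept at 6 h the block gave 68 CTCF and 70 Rad21 regions higher.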

Other observations

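The authors' deposited table gives each Jun region a time class. Of the 1617 lost regions it labels 469 static, 573 upLate, 19 upEarly, 339 downEarly and 217 downLate. In the authors' deposited table, a total of 1616 of these regions have a 72 h log2 fold change below 0, among them 592 with an up label. Over the authors' deposited table as a whole, 3620 regions with an up label have a 72 h log2 fold change below 0 and 3472 with a down label have one above 0.

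At 5 of 1093 tested H3K27ac regions at lost Jun regions, acetylation was called higher at 6 h and lower at 72 h, and at 0 it was called lower first and higher after. Over all 94865 tested H3K27ac regions the counts were 791 and 790.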
